A study of Homo sapiens with 4 samples.

Results

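The 51 genes described here were named long noncoding RNA genes of MCF12A cells, a non-tumorigenic human mammary epithelial line, although its source label calls it a breast cancer line. They were chosen by name and level from a table of 16811 genes. The symbol had to be a LINC number, to end in -AS and a number, to be SNHG and a number, or to be a MIR name ending in HG. The highest value over the 4 libraries also had to reach 10, so measured levels took part in the choice. Of 123 genes with such names, 51 passed, and 72 stayed under that level. The 51 comprised 11 of 28 LINC genes, 22 of 74 antisense genes, 13 of 13 small nucleolar RNA host genes (SNHG) and 5 of 8 microRNA host genes. At the threshold, *COX10-AS1* was just inside with a highest value of 10.1, and *KTN1-AS1* just outside with 9.65. Both groups of libraries reached 10 for 37 of the genes, while 7 passed only through the edited cells and 7 only through the wild-type cells. For those 14 genes the choice itself favoured a difference, so counts over the 51 genes are given as descriptions.

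RNA was sequenced from 2 libraries of edited and 2 libraries of wild-type MCF12A cells. In the edited cells, Cas9 and a pair of guide RNAs had deleted p2, a distal promoter of the long noncoding RNA gene *C1orf132*, which is also the host gene of miR-29b2 and miR-29c. Edited cells grew from sorted single cells, and no such step is described for the wild-type cells. The labels do not say which colony was sequenced, so a difference between the groups cannot be told apart from a difference between 1 colony and the parent line. *C1orf132* itself was not analysed here. The study calls the replicates biological, but nothing says whether they came from separate cultures, so p-values measure the spread between these libraries only. The deposited value is a normalized expression signal, scaled for transcript length as far as its low values show. The values summed to between 1444644 and 1655437 per library.

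Long noncoding RNAs are transcripts without a long reading frame, and the names sort them by what lies near or inside them. SNHG genes carry small nucleolar RNAs in their introns, which are released on splicing and guide the modification of ribosomal RNA. The spliced remainder is often short-lived and is degraded when ribosomes meet it. MIR host genes are the primary transcripts from which Drosha cuts microRNA hairpins. Antisense genes run opposite to the coding gene whose name they bear, often from a shared promoter. LINC genes lie between coding genes.

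By RefSeq (GRCh38.p14), 42 of the 51 genes matched by symbol and 9 by an older name, and 49 were annotated as long noncoding RNA. The exceptions were *LINC00493*, now the protein-coding gene *SMIM26*, and *TP73-AS1*, now a transcribed pseudogene. Some names hide a class. *LRRC75A-AS1* is now *SNHG29* and *LINC00338* is now *SNHG20*. *LINC00476* is now the antisense gene *ERCC6L2-AS1*, and *ST3GAL4-AS1* is now *GSEC*. *COX10-AS1*, *FLVCR1-AS1* and *CTBP1-AS1* are now *COX10-DT*, *FLVCR1-DT* and *CTBP1-DT*. All were kept under the class of the symbol in the table.

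The hosts bear on named small RNAs, whose mature sequences (RefSeq) are printed here with the seed, bases 2 to 8, in capitals. The mature microRNAs themselves were not measured in these poly(A)-selected libraries. *MIR205HG*, the microRNA host that was lower in edited cells, holds miR-205, whose 5p arm lies at chr1:209432166-209432187 on the plus strand. Its arms, and the main arms of the other hosts, are as follows.
miR-205-5p: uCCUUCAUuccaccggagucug
miR-205-3p: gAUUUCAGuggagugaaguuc
miR-22-3p: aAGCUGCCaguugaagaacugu
miR-34a-5p: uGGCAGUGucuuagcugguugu
miR-100-5p: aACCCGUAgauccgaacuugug
miR-125b-5p: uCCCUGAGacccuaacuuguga
let-7a-5p: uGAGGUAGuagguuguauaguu
miR-17-5p: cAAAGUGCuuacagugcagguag
miR-20a-5p: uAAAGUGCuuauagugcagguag
*MIR17HG* holds 6 microRNA hairpins, and its miR-17-5p and miR-20a-5p share the seed AAAGUGC. *MIR100HG* holds 4 hairpins, among them those of miR-100, miR-125b and let-7a, whose seeds differ from each other.

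Levels of the 51 genes spanned from a mean of 7.46 to 1344 over the 4 libraries, and none was listed at 0 in any library. These are levels of the deposited signal, which appeared only roughly to be scaled for length. SNHG genes stood highest, with a median mean of 103 against 18.03 for antisense, 13.7 for microRNA host and 10.8 for LINC genes. The highest level was that of *LRRC75A-AS1*, at 1040 and 1405 in edited and 1883 and 1049 in wild-type cells. *SNHG5*, *MIR205HG*, *SNHG6* and *SNHG1* came next, and 10 genes in all had a mean of at least 100.

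Edited and wild-type cells were compared with limma on log2(value + 1) over the 10591 genes that met the same level rule, with Benjamini-Hochberg adjustment over all of them. Differences are edited minus wild-type on that scale, which understates the change of low genes. At an adjusted p under 0.05, 6 of the 51 genes passed, 2 higher and 4 lower in edited cells. Over all genes tested, 879 passed, which is 8.3%, with 3.38% higher and 4.92% lower. The median difference of the 51 genes was 0.06 against 0.07 over all genes tested, with 26 positive and 25 negative. Values of the groups did not overlap for 33 of the 51, against 65.7% of all genes tested. The median and the share without overlap were thus close to those of all genes tested, and the calls lay in single genes. At an adjusted p under 0.001 limma called 0 of the 51, against 0.00944% of all genes tested, and 16 had an unadjusted p under 0.05, against 33% of all genes tested. When a mean of 10 was required instead, 6 of 43 passed, against 7.09% of 9590 genes. *SNHG4* and *SNHG9* were higher, and *MIR205HG*, *LINC01176*, *HOXA-AS2* and *LINC01451* were lower. An exact permutation test of 2 against 2 libraries cannot go below 0.3333, so each call rests on the variance that limma shares across genes. None of the 6 calls held without wild-type replicate 2, and *LINC01451* was the only 1 that held without wild-type replicate 1.

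**Figure D1:**
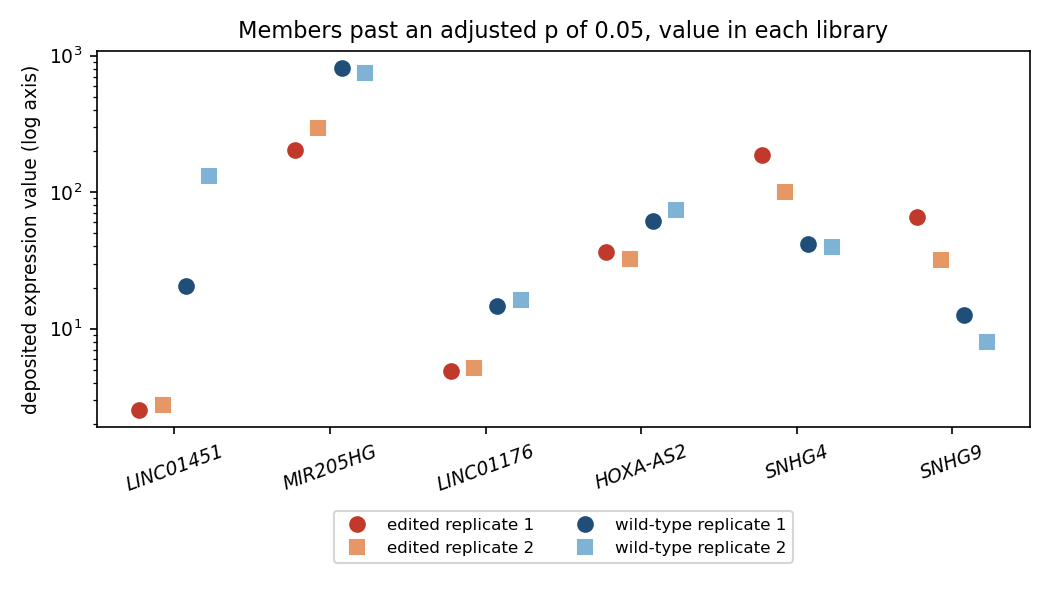
The deposited expression value (log axis) in each of the 4 libraries is plotted for the 6 genes that passed an adjusted p of 0.05, with edited libraries in red and orange and wild-type libraries in blue. For each gene the edited values lie on 1 side of the wild-type values, and *LINC01451* has the widest gap between wild-type replicates, 20.7 and 131.

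**Figure D2:**
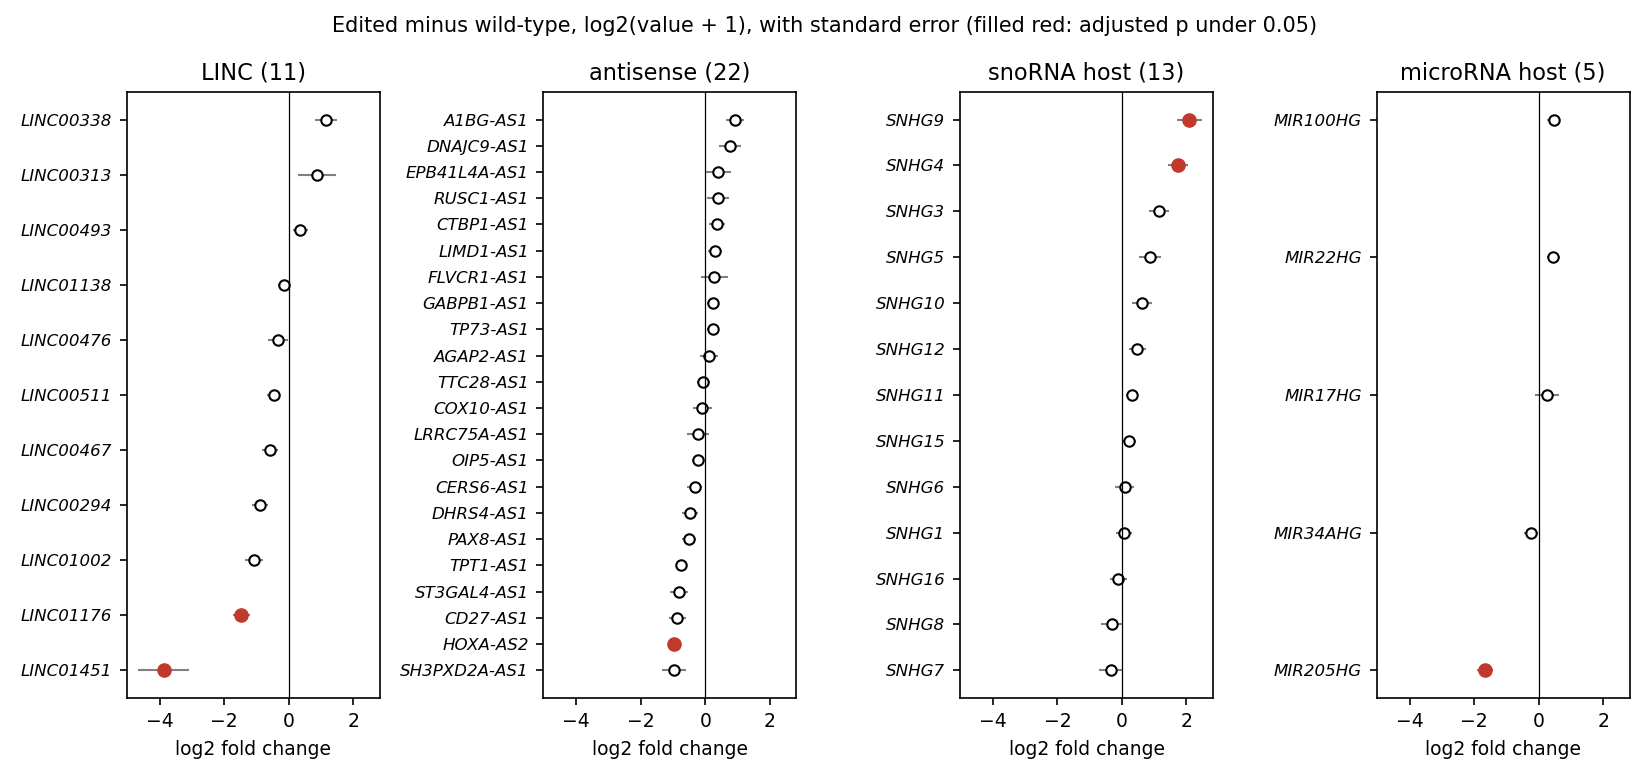
Log2 fold change (edited minus wild-type, log2(value + 1)) with its standard error is drawn for each of the 51 genes by name class, filled red where the adjusted p was under 0.05. Of the SNHG genes 10 of 13 are positive (8 of 13 under equal totals, quantile normalization, cyclic loess or without wild-type replicate 2, and 13 of 13 without wild-type replicate 1), of the LINC genes 8 of 11 are negative, and of all genes tested 55.2% are positive.

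Among the microRNA hosts, *MIR205HG* was the gene whose level differed most. Its value was 203 and 297 in edited cells but 815 and 748 in wild-type cells, so the edited cells kept 32.0% of the wild-type mean (250 ± 66.7 against 782 ± 46.7, SD, n = 2). Both edited values lay far under both wild-type values. The difference was -1.66 with a standard error of 0.26 (adjusted p = 0.0274, limma). It ranged from -1.94 to -1.39 when each library was left out in turn. The adjusted p rose to 0.103 when wild-type replicate 1 was left out and to 0.181 when replicate 2 was. *MIR205HG* lies at chr1:209428820-209432549 on the plus strand (GRCh38.p14), 1.61 Mb from the *C1orf132* gene on the same chromosome arm.

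*MIR205HG* and miR-205 are known from the basal layer of stratified and glandular epithelium, and miR-205 is a known repressor of *ZEB1* and *ZEB2*. Basal mammary markers also had negative differences, though not all were clear. Of 8 basal markers tested, 4 passed the test (against 8.3% of all genes tested), all lower in edited cells (*KRT14*, *KRT17*, *TP63* and *COL17A1*). All 8 differences were negative. Their summed level was 5281 and 8218 in edited and 14655 and 24301 in wild-type libraries. Between the wild-type replicates the sum thus rose, while *MIR205HG* fell from 815 to 748. *KRT5*, a large part of the sum, did not pass (-1.17, adjusted p = 0.137, limma). *ITGB4* was at 294 and 1277 in edited and 1378 and 660 in wild-type cells, so its groups overlapped (adjusted p = 0.569, limma). *TP63*, the basal transcription factor, was at 12.6 and 31.2 against 134 and 126 (difference -2.65, adjusted p = 0.0259, limma). Among 7 epithelial markers tested, 6 passed, with *CDH1*, *EPCAM*, *GRHL2*, *ESRP1* and *CLDN4* lower and *KRT8* higher. The summed level of the epithelial list was 684 and 680 in edited and 1034 and 710 in wild-type libraries. Of the luminal list, 1 of 3 tested genes passed, *ELF3*, which was lower. The others, *KRT7* (0.56, adjusted p = 0.424, limma) and *GATA3* (0.49, adjusted p = 0.471), had positive differences. In the mesenchymal list, where 7 of 12 genes had values, *VIM* was higher and *COL1A1* lower among 4 tested genes. The sums were 1026 and 5080 in edited against 926 and 538 in wild-type libraries. *FN1*, which did not pass (0.83, adjusted p = 0.699, limma), made most of the 5080. It was at 171 and 3735 in edited against 645 and 314 in wild-type cells, and its groups overlapped. *ZEB1* and *ZEB2* stayed under the level that was tested, at 5.83 and 6.80 against 0.3329 and 0.927 for *ZEB1*. Of the leukocyte list, *CD14* and *CD68* had values and neither passed, with summed levels from 41.7 to 58.4. No marker listed was at 0 in all libraries, and the endothelial list and the other leukocyte markers were not analysed here. In bulk libraries, fewer cells of a type and less RNA per cell cannot be told apart, and the part of these shifts in the *MIR205HG* difference was not tested.

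The other microRNA hosts did not pass. *MIR100HG* was at 17.1 and 15.0 in edited and 11.1 and 11.4 in wild-type cells (difference 0.47, adjusted p = 0.170, limma). *MIR22HG*, the source of miR-22, was at 15.7 and 16.7 against 12.8 and 10.3 (0.46, adjusted p = 0.193). For these genes both edited values were above both wild-type values. *MIR34AHG*, which holds the p53-induced miR-34a, was at 13.9 and 10.5 against 14.0 and 14.9 (-0.24, adjusted p = 0.499), with the edited values under the wild-type ones. *MIR17HG*, the host of the proliferation-linked miR-17 to miR-92a cluster, was at 10.5 and 10.5 against 12.3 and 5.89 (0.26, adjusted p = 0.655), and here the groups overlapped. Of 18 listed genes of the microRNA pathway, not all of which act on the host transcript itself, 13 were tested. At an adjusted p under 0.05 in limma 0 of them passed, against 8.3% of all genes tested. The closest were *DICER1* (-0.88, adjusted p = 0.0628) and *RAN* (0.88, adjusted p = 0.0793).

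Among SNHG genes, 2 of 13 passed, both higher in edited cells, and none passed as lower. Of all genes tested, 3.38% passed as higher and 4.92% as lower. *SNHG9*, a short host that holds SNORA78, was at 65.9 and 31.9 in edited and 12.5 and 8.02 in wild-type cells. Every edited value was above every wild-type value, and edited replicate 1 was well above replicate 2. The difference was 2.09 with a standard error of 0.38 (adjusted p = 0.0381, limma), and 1.57 without edited replicate 1. It did not pass among all genes without a filter (adjusted p = 0.0535) or among genes reaching 50 (0.0523), and reached 0.221 without wild-type replicate 2. *SNHG9* lies at chr16:1964996-1965504 (GRCh38.p14), and its canonical transcript has 339 bases. By a rough estimate from the steps of low values, it had about 219 and 116 reads in edited libraries. In wild-type libraries it had about 39 and 27.

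*SNHG4*, which holds SNORA74A and SNORA74D, was at 189 and 101 in edited and 41.9 and 39.7 in wild-type cells (difference 1.73, standard error 0.32, adjusted p = 0.0379, limma). Both edited values were more than the wild-type values, and the wild-type replicates lay close together. Its call was lost when no filter was applied (adjusted p = 0.0503) and when wild-type replicate 1 (0.116) or replicate 2 (0.215) was left out. *SNHG4* lies at chr5:139274101-139284900 on the plus strand and shares 626 exonic bases on the same strand with *MATR3*, a gene of a nuclear matrix protein. Reads in those bases could be given to either gene. *MATR3* was at 336 and 342 in edited and 260 and 267 in wild-type cells (0.36, adjusted p = 0.250). SNORA74A inside *SNHG4* was listed at 1.099 and 2.94 against 0.591 and 0, too low for a comparison.

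*SNHG3* and *SNHG5* had the next largest positive differences of the class. *SNHG3*, host of SNORA73A and SNORA73B, was at 99.9 and 65.5 in edited and 46.0 and 28.0 in wild-type cells (1.15, adjusted p = 0.0765, limma). It passed when edited replicate 2 was left out (1.45, adjusted p = 0.0190), but not without edited replicate 1 (0.85, 0.186), wild-type replicate 1 (1.501, 0.108) or wild-type replicate 2 (0.80, 0.319). SNORA73B, which has its own row, was at 18.8 and 26.3 against 6.93 and 3.75. *SNHG5* was at 738 and 801 against 582 and 304 (0.87, adjusted p = 0.143), with the wild-type replicates further apart than the edited ones. Its difference was 1.34 when wild-type replicate 1 was left out but 0.40 when replicate 2 was, and 0.59 and 0.58 under quantile normalization and cyclic loess.

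For *SNHG10* the values were 15.7 and 9.56 against 7.79 and 7.58 (0.61, adjusted p = 0.221). *SNHG12* was at 185 and 119 against 116 and 97.1 (0.48, adjusted p = 0.266), and *SNHG11* at 28.8 and 27.8 against 24.3 and 21.3 (0.30, adjusted p = 0.263). Without edited replicate 1, *SNHG10* was at 0.28 and *SNHG12* at 0.16. These genes, with *SNHG9*, *SNHG4*, *SNHG3* and *SNHG5*, made the 7 SNHG genes with every edited value above every wild-type value, and no SNHG gene had the reverse. Over all genes tested, 37.2% were higher in edited cells without overlap and 28.5% lower.

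The remaining 6 overlapped between groups. *SNHG15* was at 79.4 and 60.7 in edited and 66.6 and 54.0 in wild-type cells (0.21). *SNHG6* was at 488 and 547 against 626 and 378 (0.08), and *SNHG1* at 467 and 429 against 515 and 361 (0.06, adjusted p = 0.896, limma). *SNHG16* was at 96.2 and 98.1 against 133 and 82.9 (-0.11). *SNHG8* was at 264 and 292 against 462 and 261 (-0.32), and *SNHG7* at 155 and 205 against 321 and 159 (-0.34). In 5 of these 6 genes, all but *SNHG15*, wild-type replicate 1 was the highest and wild-type replicate 2 at or near the lowest of the 4 libraries.

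Of the 34 snoRNA genes inside the named genes, 6 had rows of their own. SNORA73B in *SNHG3* and SNORD30 in *SNHG1* (8.49 and 16.4 against 6.09 and 4.24) were higher in edited cells without overlap, as was SNORA74A in *SNHG4* at its low level. SNORD99 in *SNHG12* overlapped (14.7 and 9.53 against 11.5 and 7.997), as did SNORA60 in *SNHG11* (3.89 and 1.39 against 2.51 and 6.22) and SNORD1B in *SNHG16* (1.20 and 0 against 0 and 3.59). Mature snoRNAs carry no poly(A) tail, so values from poly(A)-selected libraries are no measure of them.

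The split between wild-type libraries ran through the whole class. All 13 SNHG genes were lower in wild-type replicate 2 than in replicate 1, by 0.04 to 1.01 on the log2 scale with a median of 0.58. Over all genes tested, 62.1% were lower there, with a median difference of -0.10. Cytosolic ribosomal protein genes, whose messages like those of several SNHG genes can begin with a pyrimidine run, were lower in that library in 84 of 84 cases (median -0.29). Genes of the snoRNP proteins, which bind the small nucleolar RNAs, were lower there in 14 of 14 cases (median -0.46). Between the edited libraries 8 of 13 SNHG genes were lower in replicate 2, with a median of -0.12. The source of the split between wild-type libraries was not tested.

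**Figure D3:**
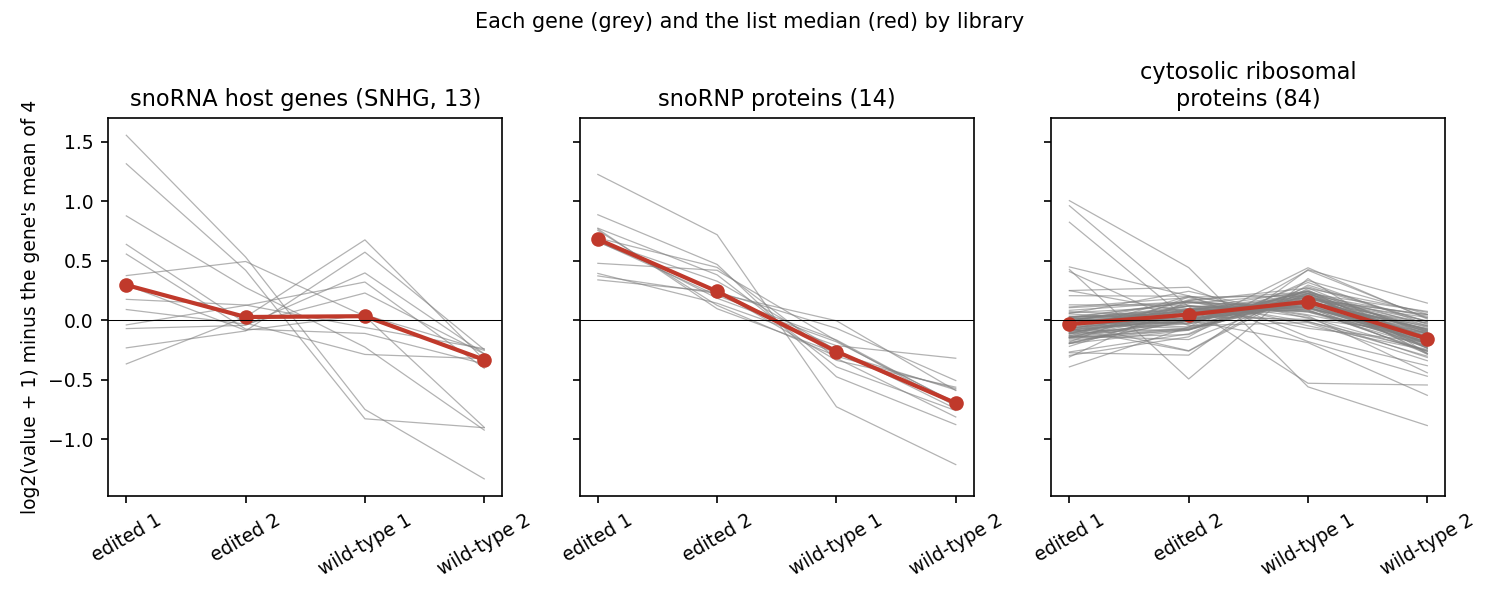
For SNHG genes, snoRNP protein genes and cytosolic ribosomal protein genes, each grey line joins 1 gene's log2(value + 1) in the 4 libraries, less the gene's mean, and the red line joins the list's median; the lines link libraries of no natural order. The SNHG median was 0.30, 0.03, 0.03 and -0.33 from edited 1 to wild-type 2, whereas the snoRNP median was 0.68, 0.24, -0.26 and -0.70.

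Between edited and wild-type cells, all 14 snoRNP protein genes had positive differences (median 0.89), against 55.2% of all genes tested. Against 8.3% of all genes tested, 4 of the 14 passed, each higher in edited cells. These were *NHP2* (1.35), *GAR1* (1.13), *RRP9* (1.94) and *NOP56* (1.15, adjusted p = 0.0499, limma), which bind box H/ACA RNAs, the U3 RNA or box C/D RNAs. Ribosomal protein genes were split, 41 positive and 43 negative of 84 with a median of -0.01, and 1 passed, *RPL26L1*, which was higher. Of the nonsense-mediated decay factors, the pathway that removes spliced SNHG transcripts, 17 were tested and 0 passed in limma at an adjusted p under 0.05 (11 positive, 6 negative, median 0.16).

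Start sites of the SNHG genes are shown because a 5′ pyrimidine run marks the messages whose translation follows growth signals. Each line gives 10 bases before the annotated start and 20 from it on, read on the gene's strand from RefSeq (GRCh38.p14). Capitals mark a run that has C at the start followed by at least 4 bases that are C or T.
SNHG4: ctcccggctgCCCTTTCCCCTCCggcctct
SNHG12: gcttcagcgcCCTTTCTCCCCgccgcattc
SNHG5: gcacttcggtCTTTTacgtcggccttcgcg
SNHG1: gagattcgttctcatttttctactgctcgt
SNHG3: gtgagtttctgattctctaactgcgcatgc
The windows are chr5:139274091-139274120 (plus strand) for *SNHG4*, chr1:28581854-28581883 (minus) for *SNHG12* and chr6:85678714-85678743 (minus) for *SNHG5*. *SNHG1* and *SNHG3* are shown as hosts whose annotated start lacks such a run. Of 10 SNHG genes with a start in the table of promoters, 3 had the run, as did 0 of the other 32 named genes with a start. These counts are per gene, with the run at any annotated start, as is the 71.2% found among 66 ribosomal protein genes. Among all 35116 promoters, counted singly and not per gene, 4.07% had it. The 3 hosts with the run had positive differences. Hosts with a start but no run had both signs. *SNHG3* (1.15), *SNHG10* (0.61), *SNHG11* (0.30) and *SNHG1* (0.06) were positive, the last with a sign that turned in some settings. *SNHG7* (-0.34), *SNHG8* (-0.32) and *SNHG16* (-0.11) were negative. Whether the run goes with the difference was not tested. A start that is off by a few bases would hide a run, so no match says only that these letters were not at the annotated base.

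Of 22 antisense genes, 1 passed, against 8.3% of all genes tested. *HOXA-AS2*, which lies between *HOXA3* and *HOXA4* in the HOXA cluster, was at 36.7 and 32.3 in edited and 61.8 and 74.6 in wild-type cells. Both edited values were below both wild-type values. The difference was -0.96 with a standard error of 0.19 (adjusted p = 0.0429, limma). The call was lost without any 1 of the 4 libraries (adjusted p from 0.0578 to 0.236), while the difference kept its sign (-1.09 to -0.83). With all 4 libraries it was also lost with no filter (0.0563) and with no variance trend (0.0569). *HOXA-AS2* is at chr7:27121919-27128760 on the plus strand and shares 455 exonic bases with *HOXA3* and 254 with *HOXA4* on the opposite strand. *HOXA3* was at 46.9 and 41.1 in edited and 58.8 and 30.1 in wild-type cells (0.06), and *HOXA4* at 87.0 and 81.7 against 98.7 and 61.7 (0.11). Neither passed (adjusted p = 0.917 and 0.799, limma), and for both the groups overlapped.

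Several antisense genes fell just short of the threshold and are named after their values were seen. *TPT1-AS1* was at 20.9 and 22.4 in edited and 35.4 and 38.8 in wild-type cells (-0.75, adjusted p = 0.0514, limma). It passed under equal library totals (adjusted p = 0.0472), median-ratio scaling (0.0488) and a pseudocount of 5 (0.04996), with adjusted p up to 0.261 when a library was left out. *A1BG-AS1* was at 12.1 and 11.6 against 6.47 and 5.26 (0.91, adjusted p = 0.0881). *CD27-AS1* was at 16.8 and 10.8 against 22.1 and 29.2 (-0.86, adjusted p = 0.0931). *ST3GAL4-AS1* was at 8.35 and 5.85 against 13.5 and 12.8 (-0.82, adjusted p = 0.106), and *SH3PXD2A-AS1* at 3.55 and 6.03 against 9.20 and 11.1 (-0.97, adjusted p = 0.133). In each of these the groups did not overlap. The 11 antisense genes not described singly had differences from -0.50 (*PAX8-AS1*) to 0.76 (*DNAJC9-AS1*), and none passed. *DNAJC9-AS1* rested on edited replicate 1, with 1.21 (adjusted p = 0.0346) without edited replicate 2 and 0.31 (adjusted p = 0.651) without edited replicate 1.

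*LRRC75A-AS1* and *EPB41L4A-AS1*, the antisense genes with the highest means, did not pass, and their groups overlapped. *HOXA-AS2*, described above, came next in level. *LRRC75A-AS1*, which by its current name is a snoRNA host, had a difference of -0.22 (adjusted p = 0.687, limma), and its wild-type replicates differed more from each other than its edited ones. *EPB41L4A-AS1*, which also holds a snoRNA, was at 86.6 and 101 against 106 and 46.4 (0.41, adjusted p = 0.499). Both *LRRC75A-AS1* and *EPB41L4A-AS1* were lower in wild-type replicate 2 than in replicate 1, as the SNHG genes were. Group means less than 1.1-fold apart were found for 5 of the 51 genes, namely *SNHG1*, *SNHG6*, *AGAP2-AS1*, *COX10-AS1* and *TTC28-AS1*.

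A sense gene of the same name had values for 18 of the 22 antisense genes. The pair moved with the same sign in 12 cases, 7 both positive and 5 both negative, and with opposite signs in 6. No pair passed for both genes, and 1 sense gene passed, *SH3PXD2A*, an invadopodium scaffold gene, at 2.30 and 6.69 in edited and 20.3 and 24.3 in wild-type cells (-2.20, adjusted p = 0.0429, limma). Its antisense gene differed by less, so the log2 ratio of antisense to sense was 1.23 higher in edited cells. *TPT1*, a growth-linked translation protein gene, was at 6003 and 8494 against 12598 and 10867 (-0.71, adjusted p = 0.107). The ratio of *TPT1-AS1* to *TPT1* was thus nearly level between groups, with a difference of -0.04.

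*ST3GAL4*, a sialyltransferase gene, went the other way from its antisense gene, at 219 and 187 in edited and 171 and 91.1 in wild-type cells (0.69, adjusted p = 0.205, limma). The ratio of antisense to sense was 1.51 lower in edited cells on the log2 scale, without overlap between groups. For *TP73-AS1* and *TP73*, the p53 family gene, the ratio was 1.00 higher, with *TP73* itself at 2.76 and 3.84 against 5.85 and 6.77. In all, the ratio did not overlap between groups for 8 of the 18 pairs (*A1BG*, *CTBP1*, *DNAJC9*, *OIP5*, *PAX8*, *SH3PXD2A*, *ST3GAL4* and *TP73*). Levels of single genes did not overlap in 65.7% of all cases, but no such share was computed for ratios of other gene pairs. The count is thus given as a description only. *LRRC75A*, the sense gene of the most abundant antisense gene, was at 2.22 and 2.41 against 3.80 and 1.87, and *EPB41L4A* at 11.04 and 2.30 against 7.43 and 12.9.

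**Figure D4:**
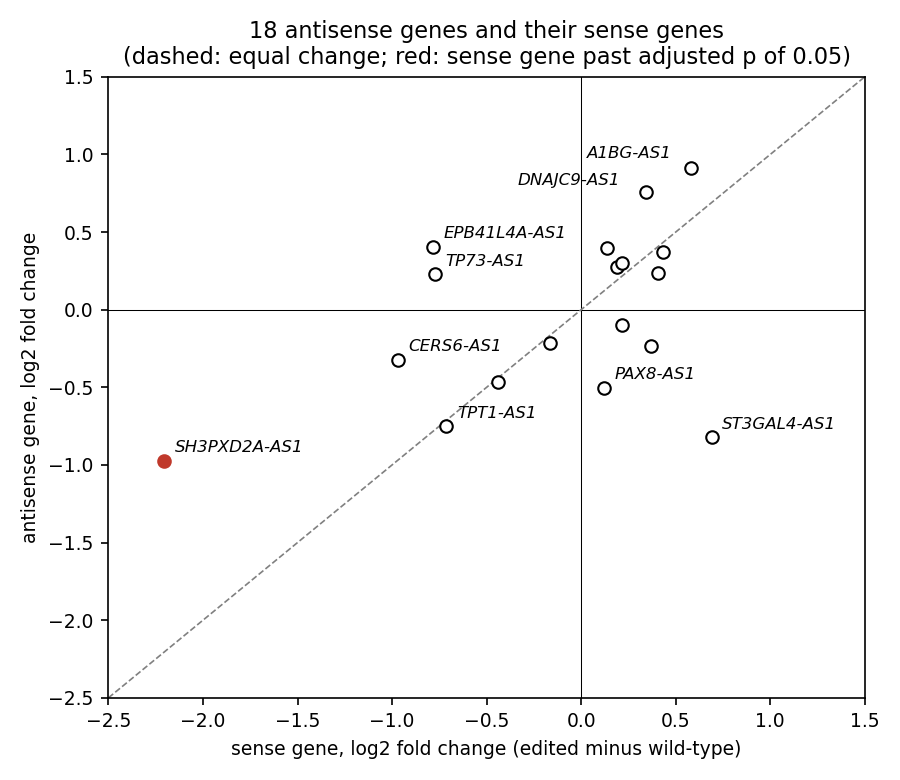
The log2 fold change of each of 18 antisense genes is plotted against that of its sense gene (edited minus wild-type, log2(value + 1)), with a dashed line where both are equal and red where the sense gene passed an adjusted p of 0.05. Of the points, 12 have equal signs in both genes and 6 opposite ones, and *SH3PXD2A-AS1* and *ST3GAL4-AS1* lie farthest from the line.

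By RefSeq, the antisense and sense starts were both placed for 11 pairs, all on opposite strands. For 7 pairs the nearest annotated starts lay within 1000 bases. In 6 of these the antisense start was upstream of the sense start, as in a shared two-way promoter. Among the 6, *RUSC1-AS1* and *CTBP1-AS1* still overlapped the spans of their sense genes, by 3283 and 916 bases. For those pairs the nearest starts were thus not the outermost ones. The smallest distances were 46 bases for *COX10-AS1*, 92 for *RUSC1-AS1* and 112 for *DNAJC9-AS1*, and *TPT1-AS1* started 162 bases from *TPT1*. In GENCODE, exons of 13 pairs overlapped. Of 50 named genes placed there, 35 shared exonic bases with a gene on the opposite strand and 17 with one on the same strand. The kit named in the labels does not say whether strand was kept, so reads in those bases cannot be told apart between the genes.

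Of 11 LINC genes, 2 were lower and 0 higher past the test (4.92% and 3.38% of all genes tested), and the class median was -0.46. The level rule had a part in this, since 4 of the 11 passed it through the wild-type cells only (*LINC01176*, *LINC01451*, *LINC00294* and *LINC00467*) and 2 through the edited cells only (*LINC00338* and *LINC00313*), so neither the median nor the count is read as a feature of the class. *LINC01176* was at 4.87 and 5.13 in edited and 14.7 and 16.3 in wild-type cells. The replicates of each group lay close together and the groups were apart. The difference was -1.46 with a standard error of 0.26 (adjusted p = 0.0356, limma), and its call was lost without edited replicate 1 (0.0563), wild-type replicate 1 (0.106) or wild-type replicate 2 (0.200), and under quantile normalization (0.0512). Its canonical transcript has 230 bases, so by a rough estimate from the steps of low values they stand for 11 to 38 reads a library. *LINC01176* lies at chr7:30390885-30404055 on the plus strand and passed the level rule through the wild-type cells only.

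*LINC01451* had the lowest difference of the 51 genes, and its size depended on the wild-type library used. It passed the level rule through the wild-type cells only, so a difference was favoured by the choice. It was at 2.52 and 2.77 in edited and at 20.7 and 131 in wild-type cells. Both wild-type values were above the edited ones, but they differed from each other by 2.60 on the log2 scale. The difference was -3.87 with a standard error of 0.79 (adjusted p = 0.0450, limma). It was -2.57 without wild-type replicate 2 (adjusted p = 0.13) and -5.18 without wild-type replicate 1 (0.0473). The call was also lost with a pseudocount of 5 (0.0604), no filter (0.0615), a highest value of at least 50 (0.0679), quantile normalization (0.0632), cyclic loess (0.0533), no variance trend (0.0572) and a robust variance (0.0898). *LINC01451* lies at chr9:136612028-136617181 on the minus strand.

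The other LINC genes did not pass. *LINC01002*, the most abundant, was at 61.1 and 83.6 in edited and 123 and 187 in wild-type cells (-1.08, adjusted p = 0.0704, limma). It passed without edited replicate 2 (-1.30, adjusted p = 0.0298) and among genes reaching 50 (0.0487), with adjusted p up to 0.301 without wild-type replicate 2. *LINC00294* was at 7.29 and 7.24 against 12.7 and 15.9 (-0.88, adjusted p = 0.0789). *LINC00467* (-0.57) and *LINC00511* (-0.46) were also below the wild-type values in both edited libraries. On the positive side, *LINC00338*, named *SNHG20* in RefSeq, where it holds no snoRNA but the hairpin of miR-6516, was at 13.8 and 10.2 against 5.67 and 3.99 (1.16, adjusted p = 0.0807). *LINC00493*, the coding gene *SMIM26*, was at 73.7 and 58.5 against 59.6 and 43.8 (0.36, adjusted p = 0.324). *LINC00313* was at 5.62 and 21.7 in edited and 5.50 and 5.68 in wild-type cells (0.90, adjusted p = 0.325), so its difference came from edited replicate 2, with 1.78 (adjusted p = 0.0403) without edited replicate 1 and 0.0083 without edited replicate 2. *LINC01138* and *LINC00476* had differences of -0.14 and -0.33.

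CpG pairs were counted at the annotated starts. In the window of 250 bases before to 50 after the annotated start, *MIR205HG* and *LINC01176* had 1 CG, *HOXA-AS2* 3 and *LINC01451* 7. *SNHG4*, which was higher, had 19. Where a gene had several annotated starts, its highest count was used for the medians and shares, so genes with more starts could count higher. The median over 42 named genes with a window was 23, and over 7573 tested genes it was 29. Windows with 7 or fewer were found for 8 of the 42 and for 3.97% of the tested genes. The limit of 7 was set after these values were seen, and the rest of the 8 were *LINC00294*, *LINC01002*, *GABPB1-AS1* and *EPB41L4A-AS1*, of which the last pair had positive differences (0.24 and 0.41). Genes that were lower without overlap but did not pass also had windows with many. Examples were *TPT1-AS1* with 38, *LINC00511* with 35 and *PAX8-AS1* with 15 and 32 at its annotated starts. A low count thus did not go with a negative difference throughout.

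Some chromosomes differed as a whole, which touches several of the named genes. The median difference was -0.46 on chromosome 14 (*SNHG10* and *DHRS4-AS1*), -0.27 on chromosome 13 (*MIR17HG* and *TPT1-AS1*), -0.21 on chromosome 7 (*HOXA-AS2*, *SNHG15* and *LINC01176*) and -0.20 on chromosome 9 (*LINC01451*, *SNHG7* and *LINC00476*). It was 0.34 on chromosome 5, where *SNHG4* and *EPB41L4A-AS1* lie, 0.26 on chromosome 16 with *SNHG9*, and 0.05 on chromosome 1 with *MIR205HG*. The differences of the 6 called genes were larger than these medians, and the part of the chromosome in them was not tested.

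Well-known long noncoding RNA genes outside the name rule were examined as well. Of 52 listed, 19 were tested and 2 passed, both lower in edited cells, with 11 positive and 8 negative and a median of 0.06. Among all genes tested, 8.3% passed. *TP53TG1*, a p53-induced transcript, was at 45.6 and 36.0 in edited and 141 and 142 in wild-type cells (-1.78, adjusted p = 0.0141, limma). *TINCR*, an RNA of epidermal differentiation, was at 8.34 and 10.6 against 21.1 and 23.8 (-1.17, adjusted p = 0.0382). *UCA1* was at 52.8 and 16.0 against 183 and 125 (-2.33, adjusted p = 0.0562), with no overlap. *GAS5* and *ZFAS1*, which are snoRNA hosts under other names, were at 1133 and 1314 against 1739 and 831 (0.02), and at 691 and 913 against 1322 and 789 (-0.36). Both were lower in wild-type replicate 2 than in replicate 1.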

How the data were processed

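RNA-seq libraries of MCF12A cells (2 edited, 2 wild-type, grouped by the labels) were poly(A)-selected and sequenced as single-end reads. The authors deposited 1 normalized expression signal per gene symbol and library. The submitters' processing notes name HISAT2, Salmon and the build hg38, and the normalization is not given in the sources used here. Low values times transcript length fell only roughly on whole multiples of a step, so whole reads were not recovered, no count test was run, and depth is an estimate that covers counting error only. The table held 0 other value columns.

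Genes reaching 10 in any library (10591) were fitted on log2(value + 1) in R 4.3.3 with the package limma 3.58.1 (lmFit, eBayes with trend, two-sided), with Benjamini-Hochberg adjustment over all of them and a threshold of 0.05. The test was checked on simulated data. SDs are over 2 libraries. Python 3.11.15, numpy 2.4.6, pandas 2.3.3 and matplotlib 3.10.9 were used.

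The genes and lists were chosen with earlier results of these data known. The text names every called gene, the 3 most abundant genes per class, every SNHG and microRNA host gene, sense genes of those named, the genes next to the level threshold, genes less than 1.1-fold apart, and examples of list genes that were called or among the highest; other genes were named after their values were seen. Positions and sequences came from RefSeq (GRCh38.p14). Exon overlap and transcript lengths came from GENCODE on GRCh37, from which no coordinate is printed. Alternatives in pseudocount, filter, scaling, replicate block, variance model, threshold and left-out libraries were computed.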

Additional observations from a re-analysis of the deposited data

How the results depend on the processing

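Of the 51 genes, 6 were called (2 higher, 4 lower). Under no filter 2 were called (0 higher, 2 lower), and among genes reaching 50 in a library 1 was called higher. Quantile normalization and no variance trend each left 2 called lower. At an adjusted p under 0.001 the limma fit called 0 (0 higher, 0 lower), with 16 at an unadjusted p under 0.05 against 33% of all genes tested. With the replicate number as a block 1 was called (1 higher, *SNHG9*, and 0 lower), and 122 genes in all against 879; the numbers were not found to pair the libraries (r = -0.114 between same-numbered deviations across 10591 genes). A crossed block, added after the data were seen, called 8 and 1278 genes in all. Leaving out 1 library gave 0 to 8 called (0 to 4 higher, 0 to 4 lower), the lowest without wild-type replicate 2 and the next, 1, without wild-type replicate 1. Of the called genes none changed sign in any setting. Under equal library totals the median of all genes moved from 0.07 to -0.05, and the calls were 2 higher and 5 lower. With a mean of at least 10, 9 antisense pairs remained, 6 with the same sign; no pair count was computed for the filters at 0 and at 50. Signs turned for 13 of the 51 genes, 24 times in all. Under equal totals *SNHG1* was at -0.063 and *SNHG6* at -0.035. Under quantile normalization and cyclic loess, in this order, *SNHG1* was at -0.19 and -0.25, *SNHG6* at -0.18 and -0.22, and *COX10-AS1* at 0.15 and 0.16. The other turns came with 1 library left out, where the differences ranged as follows: *SNHG1* -0.20 to 0.31, *SNHG6* -0.28 to 0.45, *SNHG7* -0.85 to 0.16, *SNHG8* -0.73 to 0.086, *SNHG16* -0.45 to 0.23, *LRRC75A-AS1* -0.64 to 0.20, *TTC28-AS1* -0.30 to 0.18, *EPB41L4A-AS1* -0.18 to 0.99, *MIR17HG* -0.22 to 0.73, *AGAP2-AS1* -0.14 to 0.36, *FLVCR1-AS1* -0.19 to 0.73, *LINC00476* -0.68 to 0.014 and *COX10-AS1* -0.28 to 0.083. The ends of each range came without wild-type replicate 1 or 2, except for *FLVCR1-AS1* and *LINC00476* (edited replicates). The cause of these turns was not tested.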

Other observations

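Of the 72 genes with such names that stayed under a highest value of 10, 17 were LINC, 52 antisense and 3 microRNA host genes, and no SNHG gene was among them. Both edited values were above both wild-type values for 17 and below them for 24, and 2 were listed at 0 in a library. Over all genes tested, which reach higher levels, 37.2% were above and 28.5% below without overlap. More of the low genes were thus below than above, while the genes tested had the reverse. As the levels differ, these counts are given as descriptions, and this contrast was not tested. *KTN1-AS1*, the nearest to the level, was at 4.30 and 4.49 in edited and 9.65 and 8.72 in wild-type cells. *DLX6-AS1*, which lies in a developmental homeobox locus and was picked after its values were seen, was at 0.640 and 0.996 against 6.96 and 6.15. *MIRLET7BHG*, a host of let-7 microRNAs, was at 8.40 and 8.74 against 7.23 and 7.16. These genes were not tested, since values this low rest on few reads.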
